A study of Mus musculus with 29 samples.

Results

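The immediate early genes examined here were Fos, Fosb, Jun, Junb, Egr1, Ier2, Dusp1, Atf3, Nr4a1 and Klf6, taken as the 10 rows with these symbols among the 23366 genes of the deposited count files. They were measured by RNA sequencing in 29 libraries of mouse bone marrow cells sorted as lineage-negative, cKit-positive and Sca1-positive, a gate that holds haematopoietic stem and multipotent progenitor cells, and divided by CD150, so that each library is a positive or a negative fraction. All mice were C57BL/6, aged 8 to 12 weeks, of both sexes, with sexes matched between groups. Each fraction came from 4 genotypes: wild type (title letters D and W), Puma-/- (C), Mysm1-/-Puma+/- (A) and Mysm1-/-Puma-/- (B and P). Mysm1 encodes a histone H2A deubiquitinase and Puma, also named Bbc3, a p53-induced killer protein. The mice without Mysm1 alone also carried 1 disrupted Puma allele, and the study's design text treats them as equivalent to Mysm1-/- mice. The CD150-negative groups had 3 libraries each, and the CD150-positive groups had 4 D and W, 2 C, 4 A and 7 B and P libraries. Of the CD150-positive libraries, 3 Mysm1-/-Puma-/- libraries carried the letter P in their titles and 1 wild-type library the letter W, and no other label set these 4 apart. The labels do not state whether libraries of a group came from separate mice, so p-values measure the spread between libraries, which may be partly technical. The CD150-positive titles C1-4, C2-5 and D3-4 carry a pair of numbers whose meaning the labels do not give, and each was counted as 1 replicate. In bulk RNA a rise in every cell and a larger number of expressing cells cannot be told apart.

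Immediate early genes are transcribed within minutes of a stimulus such as a growth factor, calcium entry or stress, without new protein synthesis. Signals reach them through kinases that act on serum response factor with its ternary complex partners and on CREB, which binds the cAMP response element. Their products are mostly transcription factors, with Fos and Jun family proteins pairing to form AP-1, and their messages are short-lived. In blood stem cells, Egr1, Nr4a1 and Junb are known for roles in quiescence and in restraint of proliferation, and this class of genes is also known to respond to tissue dissociation and cell handling.

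The sequence 5' of the start site is shown for 4 of the 5 members that later passed the test between the P and B libraries. The fifth, Ier2, had no entry in the promoter table used. Sequences are from RefSeq on GRCm38.p6, cover the 250 bases before the annotated start, and are written 5′ to 3′ on the gene's strand. Capitals mark TGACG, or CGTCA where it lies on the other strand, the core of the cAMP response element TGACGTCA.
Fos (chr12:85473640-85473889, plus strand): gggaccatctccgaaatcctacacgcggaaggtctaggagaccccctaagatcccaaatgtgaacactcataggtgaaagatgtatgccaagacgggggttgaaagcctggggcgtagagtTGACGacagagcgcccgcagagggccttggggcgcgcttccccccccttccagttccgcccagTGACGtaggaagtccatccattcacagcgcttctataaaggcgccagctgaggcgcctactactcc
Fosb (chr7:19310046-19310295, minus strand): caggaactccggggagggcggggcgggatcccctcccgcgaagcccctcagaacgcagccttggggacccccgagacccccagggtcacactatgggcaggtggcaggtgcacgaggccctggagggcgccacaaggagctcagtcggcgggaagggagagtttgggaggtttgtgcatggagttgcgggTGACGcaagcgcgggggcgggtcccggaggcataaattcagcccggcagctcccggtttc
Jun (chr4:95052223-95052472, minus strand): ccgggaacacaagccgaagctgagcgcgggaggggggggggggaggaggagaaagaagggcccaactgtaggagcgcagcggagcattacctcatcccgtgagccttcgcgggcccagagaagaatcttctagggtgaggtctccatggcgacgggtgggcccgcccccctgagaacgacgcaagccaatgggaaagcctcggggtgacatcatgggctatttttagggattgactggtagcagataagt
Nr4a1 (chr15:101266596-101266845, plus strand): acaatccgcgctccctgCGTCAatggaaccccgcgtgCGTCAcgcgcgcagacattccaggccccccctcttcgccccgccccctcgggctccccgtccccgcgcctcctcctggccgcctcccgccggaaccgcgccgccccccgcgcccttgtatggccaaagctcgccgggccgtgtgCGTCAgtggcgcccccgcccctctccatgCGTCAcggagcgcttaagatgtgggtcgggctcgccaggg
In these windows Fos held 2 matches, Fosb 1, Jun 0 and Nr4a1 4. Windows from 250 bases before to 50 bases after the start were searched for 8 members. Ier2 had no entry, and Egr1 was left out of the search, so the counts say nothing of these genes. Of the 8 members searched, 6 held TGACG on either strand, against 20.8% of 32851 RefSeq promoter windows of the same length. The whole element TGACGTCA was found in 1 of the 8, Dusp1, where it also counts as a TGACG match on each strand, and in 1.79% of all windows. The CArG box bound by serum response factor was found in 0 of the 8 members and 1.63% of all windows, and the AP-1 motif TGACTCA, searched on both strands, in 0 of the 8 and 5.2% of all windows. A match is a description of letters only, and the absence of one covers only these windows.

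Total counts ran from 28066870 to 54339749 in the CD150-negative libraries and from 12304713 to 35034318 in the CD150-positive ones, with 14830752 to 23333401 in the P and W libraries. Slamf1, which encodes CD150, had 11.0 to 30.4 CPM, a count scaled to library size, in the CD150-positive libraries and 0.218 to 2.30 CPM in the CD150-negative ones, so the fractions matched their labels. Kit was at 449 CPM or more in every library. The P and W libraries had counts in 15936 to 20351 genes and the other CD150-positive libraries in 18810 to 21704. Levels below are CPM scaled by TMM over all 29 libraries together.

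Outside the P and W libraries the immediate early genes were low to moderate in every group. Summed over the 10 genes, the level was 77.3 to 199.9 CPM in these 25 libraries, with a median of 116 CPM. Compared per kilobase of exon, Ier2, a small nuclear protein of the early response, was the most abundant at a median of 13.9 CPM per kilobase. Jun, the basic leucine zipper partner of Fos, followed at 9.92, Junb, a Jun relative, at 8.37 and Klf6, a zinc finger factor, at 7.29 CPM per kilobase, and the ranges of these 4 genes overlapped. Dusp1, the phosphatase that inactivates MAP kinases, stood at 3.49 CPM per kilobase. Egr1, a zinc finger factor, was at 1.62, Fos at 1.37 and Nr4a1, an orphan nuclear receptor, at 1.21 CPM per kilobase. Fosb, a Fos relative, was at 0.430 and Atf3, a stress-induced leucine zipper factor, at 0.307 CPM per kilobase, again with ranges that overlapped those above them. In the P and W libraries the order was different, with Jun at a median of 117, Fos at 44.0 and Ier2 at 37.1 CPM per kilobase.

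Every one of the 10 genes reached its highest level of all 29 libraries in W1, and Fos, Jun, Ier2 and Dusp1 were above all 25 remaining libraries in each of the 4 P and W libraries. Fos stood at 11.5 CPM in P1, 61.1 in P2, 123 in P3 and 218 in W1. In the B libraries, of the same genotype and fraction as P, Fos was at 1.65 CPM in B1, 2.86 in B3, 1.61 in B5 and 2.91 in B6. In the D libraries, which match W1, it was at 1.05 CPM in D1, 0.854 in D2 and 4.21 in D3-4. The lowest P library was thus above every B and D library, and across the 25 libraries Fos stayed between 0.417 and 4.54 CPM.

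Jun followed the same division on a higher scale. It was at 168 CPM in P1, 333 in P2, 416 in P3 and 493 in W1. The B libraries had 28.1, 26.5, 16.3 and 46.9 CPM in B1, B3, B5 and B6, and the D libraries had 66.2, 31.6 and 17.9 CPM in D1, D2 and D3-4. The groups did not overlap, although Jun was the member that varied most in absolute CPM among the other libraries, from 7.12 CPM in the CD150-positive A2 to 86.1 in A4. Jun made up 41.2% to 53.5% of the summed level of the 10 genes in the P and W libraries and 9.20% to 44.3% in the rest.

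Fosb had 4.20, 9.79 and 22.1 CPM in P1, P2 and P3 and 61.6 CPM in W1. Its levels were 1.32, 0.940, 1.41 and 1.40 CPM in B1, B3, B5 and B6 and 1.05, 1.62 and 0.658 CPM in D1, D2 and D3-4. Against the whole set of 25 libraries, where the highest value was 4.77 CPM in the CD150-negative Puma-/- library C3, P1 fell inside the range and P2, P3 and W1 lay above it. Junb lay above the B range with a smaller gap, at 23.0, 30.5 and 37.1 CPM in P1, P2 and P3 against 15.4 to 21.1 CPM in B. W1 had 38.1 CPM of Junb against 9.91 to 12.4 CPM in D, and A4, at 24.3 CPM, lay above P1. Atf3 was low throughout, at 0.657, 1.89 and 4.47 CPM in P1, P2 and P3 and 5.40 CPM in W1, against 0.274 to 1.46 in B and 0.333 to 1.02 in D. P1 lay inside the B range for Atf3, and the Puma-/- library C2-5 had 3.64 CPM, above P2.

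Among the zinc finger and nuclear receptor factors, P1 was close to the B libraries and P2, P3 and W1 were not. Egr1 was at 9.89, 23.7 and 29.8 CPM in P1, P2 and P3, against 5.98, 8.86, 6.09 and 8.17 CPM in B1, B3, B5 and B6. W1 had 51.7 CPM of Egr1 against 4.27 to 8.88 CPM in D. Klf6 was at 39.9, 82.4 and 119 CPM in P1, P2 and P3 and at 26.6 to 46.3 CPM in B, so that P1 lay within the B range. Its level was 131 CPM in W1 and 28.1 to 30.4 CPM in D. Nr4a1 gave the sharpest break between P libraries: 2.19 CPM in P1, inside the B range of 1.49 to 4.19, but 47.1 CPM in P2 and 46.6 in P3. W1 had 55.6 CPM of Nr4a1, against 2.44, 4.10 and 5.05 CPM in D1, D2 and D3-4.

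Ier2 stood at 35.8, 53.2 and 59.7 CPM in P1, P2 and P3 and at 22.0 to 29.6 CPM in B. In W1 it was at 64.6 CPM, with 15.0 to 21.1 CPM in D. Dusp1 was at 18.7, 39.7 and 56.1 CPM in P1, P2 and P3 and at 8.07 to 13.1 CPM in B. It reached 79.0 CPM in W1 against 5.47 to 9.30 CPM in D. For both genes all 4 libraries lay above the highest of the other 25, which was B6 for Ier2 and the Puma-/- library C1-4 for Dusp1.

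**Figure D1:**
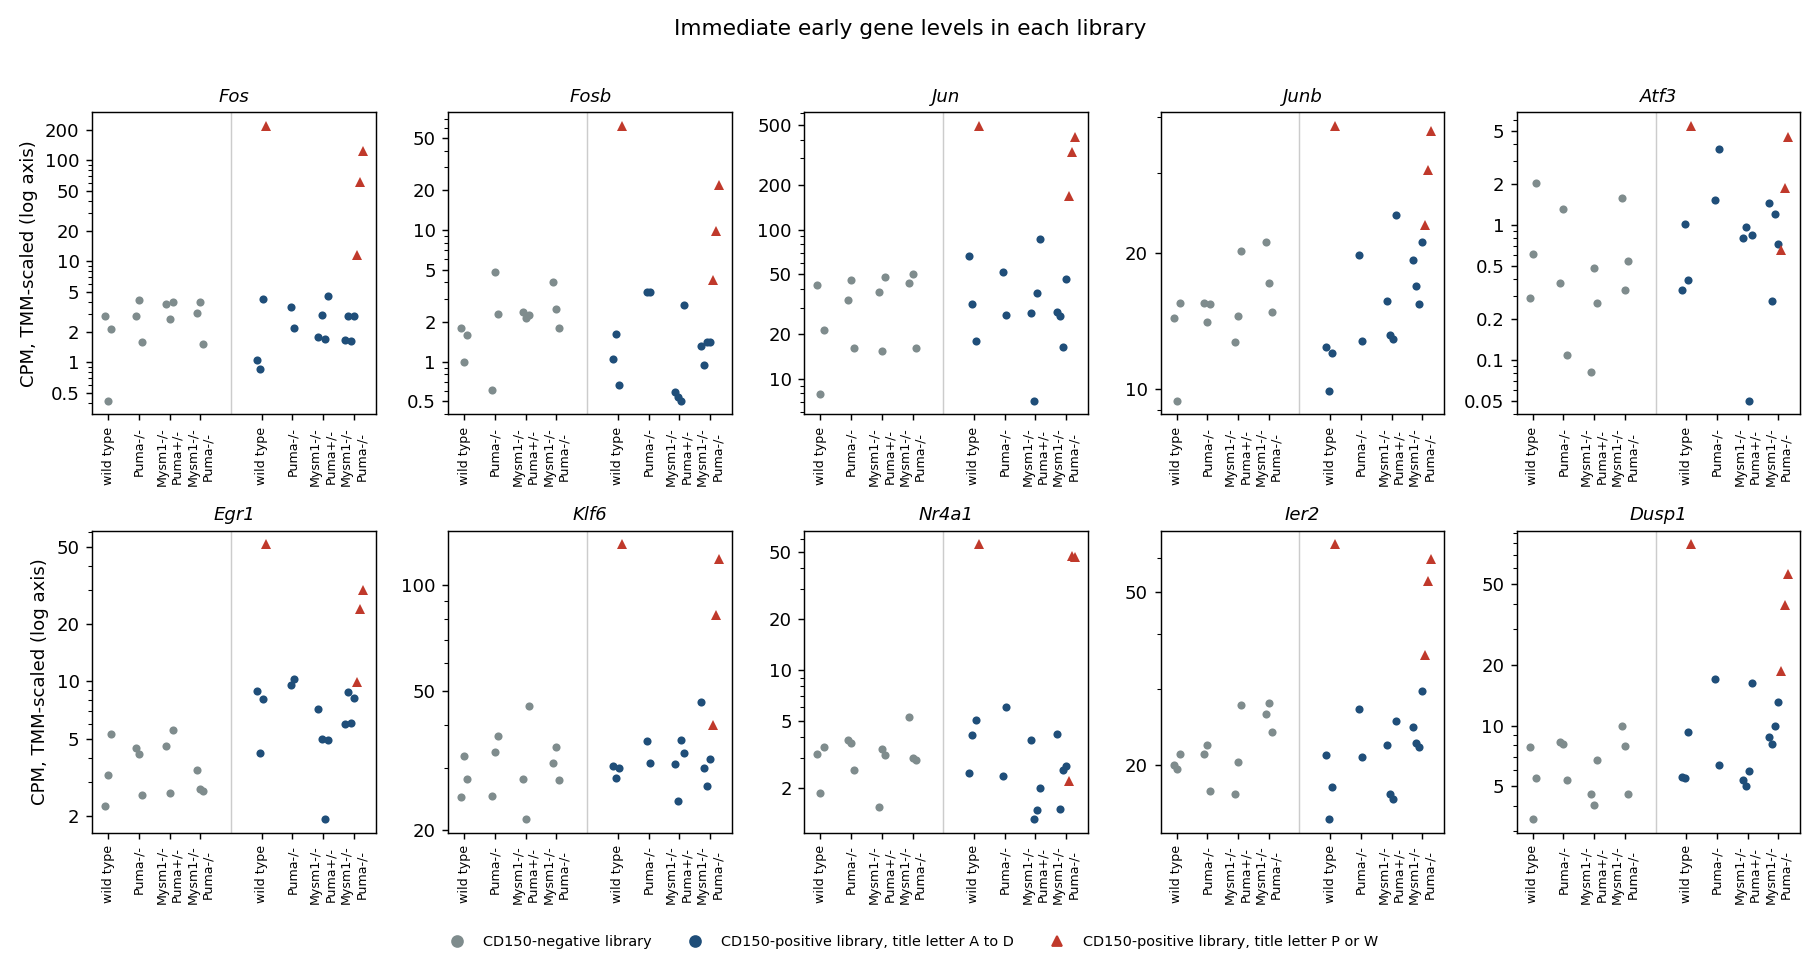
Each panel plots 1 gene, with TMM-scaled CPM on a log axis and 1 point per library, CD150-negative groups left of the line and CD150-positive groups right of it; the Atf3 library with no count is drawn at 0.05 CPM. The red triangles (P libraries in Mysm1-/-Puma-/-, W1 in wild type) stand apart from the circles of the same genotype for Fos, from 11.5 to 218 CPM, while P1 sits among the circles for Nr4a1 and Atf3.

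The 4 libraries were ordered alike by nearly every member. P1 was below P2 for 10 of the 10 genes, P2 below P3 for 9 (all but Nr4a1), and P3 below W1 for 10. The summed level was 313 CPM in P1, 682 in P2, 915 in P3 and 1199 in W1. Relative to the median of the B libraries, Fos was 5.11-fold higher in P1, 27.1-fold in P2 and 54.7-fold in P3, and in W1 it was 207-fold above the median of D. Fosb reached 16.2-fold in P3 and 58.4-fold in W1, and Jun 15.2-fold and 15.6-fold. The smallest ratios in P3 and W1 were those of Junb, at 2.05-fold and 3.17-fold. Fos, Fosb and Jun were also above the B median in P1, at 5.11, 3.09 and 6.13 times it, whereas Nr4a1 in P1 was at 0.837 and Atf3 at 0.680 of the B median. W1 is a single library, and its ratios have no replicate check.

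**Figure D2:**
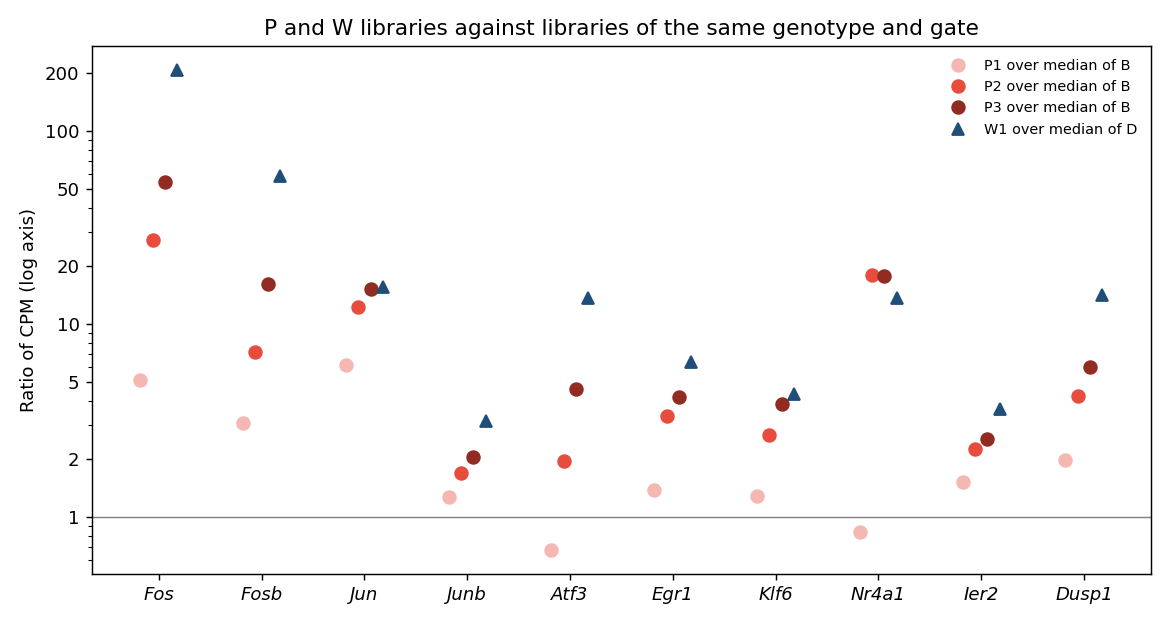
Ratio of each P library to the median of the 4 B libraries, and of W1 to the median of the 3 D libraries, on a log axis for each of the 10 genes. Ratios run from 0.680 for Atf3 in P1 to 207 for Fos in W1, and the P1 points are lowest for every gene.

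Tested as P against B within the Mysm1-/-Puma-/- CD150-positive libraries, 5 of the 10 members rose: Fos, Jun, Fosb, Nr4a1 and Ier2. The edgeR quasi-likelihood test over 21737 genes, with a Benjamini-Hochberg adjusted p under 0.05 as the threshold, called 0.129% of all genes with 0.0460% higher (10 genes) and 0.0828% lower (18 genes). The log2 fold change of Fos was 4.84 ± 0.59 (SE; 3 P against 4 B libraries, adjusted p = 0.00122), with the smallest p of all genes. The members were chosen with the high Fos of the P and W libraries already known. The p and rank of Fos thus describe a difference seen beforehand and are no independent test of it. Jun rose by 3.39 ± 0.55 on the log2 scale (adjusted p = 0.0195) and Fosb by 3.25 ± 0.54 (0.0203). Nr4a1 rose by 3.57 ± 0.64 (adjusted p = 0.0261) in spite of the low P1 library, and Ier2 by 1.03 ± 0.21 (0.0490). Dusp1 had a log2 fold change of 1.95 ± 0.40 and Klf6 of 1.26 ± 0.26, both at an adjusted p of 0.0568, which missed the threshold. Egr1 at 1.55 ± 0.38 (adjusted p = 0.130), Junb at 0.75 ± 0.24 (0.272) and Atf3 at 1.35 ± 0.93 (0.537) did not pass either. The median log2 fold change was 1.75 over the members and -0.16 over all genes tested.

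In 7 of the 10 members every P library lay above every B library, as did 6.45% of all genes, and in 5 of the 10 every P and W library lay above all 13 remaining CD150-positive libraries, as did 1.07% of all genes. The 5 were Fos, Fosb, Jun, Ier2 and Dusp1. W1 exceeded all 3 D libraries for 10 of 10 members and for 24.0% of all genes. When P against B and W against D were fitted as 1 term over all 17 CD150-positive libraries, a fit added after the values were seen, 9 of the 10 members rose, with 1.07% of 20944 genes called in either direction and 0.477% higher. In that fit the log2 fold change was 5.48 ± 0.50 for Fos (edgeR adjusted p = 4.6e-06), 2.49 ± 0.35 for Dusp1 (0.00105), 1.55 ± 0.22 for Klf6 (0.00109), 1.99 ± 0.33 for Egr1 (0.00322) and 1.07 ± 0.22 for Junb (0.0178). Atf3, at 2.01 ± 0.76, was the member that did not pass (adjusted p = 0.184).

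The number of members called in P against B depended on the libraries and on the fit. It was 1 without B5 and 1 without P2, 2 without B6, 8 without P1 and 8 with DESeq2. Fitted on the P and B libraries alone it was 1, Jun at an adjusted p of 0.0348, and Fos then had an unchanged size of 4.83 with an adjusted p of 0.0775.

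Among genes that are no members, Ppp1r15a, which restores translation after stress, rose with them by 1.55 ± 0.28 on the log2 scale (edgeR adjusted p = 0.0249). Its level was 117, 197 and 224 CPM in P1, P2 and P3 and 40.0 to 70.1 CPM in B, and 282 CPM in W1 against 37.5 to 56.8 CPM in D. The other genes outside the members that were called higher in P were Taf7, Tespa1, Chdh and BC005764. The 18 genes called lower in P included S100a8 and S100a9, proteins of mature neutrophils and monocytes, and Cd3g, a subunit of the T cell receptor complex. Ltf, Camp, Lcn2, Chi3l3, Cd5, Il2rb and Skap1 were also among the 18. The rest were 5830416I19Rik, Snora74a, Rmrp, Terc, Lars2, Fam198b, Tmem38b and Bhlhe41. Rmrp was at 193 to 258 CPM in P and 469 to 1542 CPM in B, and at 274 CPM in W1 against 355 to 857 CPM in D. S100a8 was at 1.62 to 6.20 CPM in P and 14.7 to 107 CPM in B, and at 2.75 CPM in W1 against 22.8 to 38.3 CPM in D. Of the myeloid marker list 2 of 7 tested genes fell and 0 rose, and of the T and NK cell list 1 of 7 fell and 0 rose. The summed T and NK cell markers were at 39.5 to 57.3 CPM in P and 66.0 to 95.3 CPM in B, with Cd3e at 0 in W1. The summed myeloid markers overlapped, at 636 to 895 CPM in P and 527 to 737 CPM in B, and in W1 they were at 992 CPM, above the 426 to 709 CPM in D. This sum also holds Mpo, Elane and other genes, so it does not show the fall of S100a8 and S100a9. The summed megakaryocyte markers did not overlap, at 314 to 521 CPM in P and 549 to 673 CPM in B, with 167 CPM in W1 and 282 to 389.6 CPM in D. The median log2 fold change was -1.46 over 6 B cell markers, -1.26 over 4 tested erythroid markers and -0.93 over 4 megakaryocyte markers, beside -0.16 over all genes, and 0 genes of these 3 lists passed. Of the 6 markers of the sorting gate and of progenitors 0 were called, with a median of 0.32, and the P and B ranges were apart only for Flt3 and Cd34. Flt3, a receptor of multipotent and lymphoid progenitors, was at 96.9 to 188 CPM in P and 92.3 CPM in W1, above all 13 other CD150-positive libraries at 27.2 to 77.5 CPM and below the CD150-negative ones at 267 to 743 CPM. Cd34, a progenitor surface marker, was at 281 to 380.3 CPM in P and 158 to 230.1 CPM in B. Slamf1 overlapped, at 11.0 to 16.6 CPM in P and 15.9 to 19.4 CPM in B. So did Kit (737 to 812 CPM in P, 605 to 742 in B), Cd48 (17.1 to 26.8 and 11.7 to 22.5) and Ly6a, which encodes Sca1 (9.67 to 15.8 and 14.3 to 24.1). Olfactory, vomeronasal and trace amine receptor genes, which these cells are not known to use and which were summed as a background, were at 608 to 3834 CPM in the P and W libraries and 1391 to 8902 in the other CD150-positive ones. The part of these differences in the early gene levels was not tested.

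The genotype comparisons asked whether loss of Mysm1 or of Puma moved the early genes. In the CD150-positive cells the values differed with and without the P and W libraries. Mysm1-/-Puma+/- against wild type gave log2 fold changes below 0 for all 10 members, with a median of -1.72. Of these 0 passed edgeR's test, where 0.454% of all genes were called. An unadjusted p under 0.05 was found for 5 members and for 8.71% of all genes. Fos had a log2 fold change of -4.32 ± 1.53 (adjusted p = 0.389), a comparison of 1.72 to 4.54 CPM in the 4 Mysm1-/-Puma+/- libraries with a wild-type group whose highest value, 218 CPM, was that of W1. Without P and W the same fold was 0.44 ± 0.61, 8 of the 10 members were above 0, and their median was 0.19. Again 0 of 10 passed, with 1 unadjusted p under 0.05 (Junb, at 0.59 ± 0.25 and an adjusted p of 0.381). Of all genes 0.350% were called and 12.2% had an unadjusted p under 0.05.

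Puma loss on the Mysm1-null background, Mysm1-/-Puma-/- against Mysm1-/-Puma+/-, turned the other way with the P libraries counted. All 10 members had log2 fold changes above 0, with a median of 1.40. An unadjusted p under 0.05 was found for 5 members and for 3.81% of all genes, but 0 of 10 passed and 0% of all genes were called. Without P and W the median was 0.21 and the folds ran from -0.46 to 0.55, with 0 unadjusted p under 0.05. With a term for the P and W libraries in place of leaving them out, the medians of these 2 comparisons were -0.07 and -0.01. The approximate 95% interval of the Fos fold was -0.75 to 1.63 for Mysm1 loss and -1.40 to 0.77 for Puma loss when the P and W libraries were left out. DESeq2 and limma voom also called 0 of 10 members in each of these comparisons.

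The remaining CD150-positive comparisons called 0 of 10 members as well, with 0 unadjusted p under 0.05 when all libraries were counted. Double loss against wild type, which has P libraries on one side and W1 on the other, gave a member median of -0.16, with 0.291% of all genes called. Without P and W the median was 0.22, with 0.185% of all genes called. Junb, at 0.68 ± 0.26, and Ier2, at 0.46 ± 0.21, then had an unadjusted p under 0.05 (edgeR adjusted p of 0.732 and 0.862), as did 5.70% of all genes. Mysm1 loss on the Puma-null background had a member median of 0.79, with 0.115% of all genes called, and of -0.36 without P and W, with 0.0633% called. Puma loss alone, with 2 Puma-/- libraries, had a member median of -1.03 and of 0.44 without P and W, and 0% of all genes were called. These 5 comparisons share groups with each other and are not independent.

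**Figure D3:**
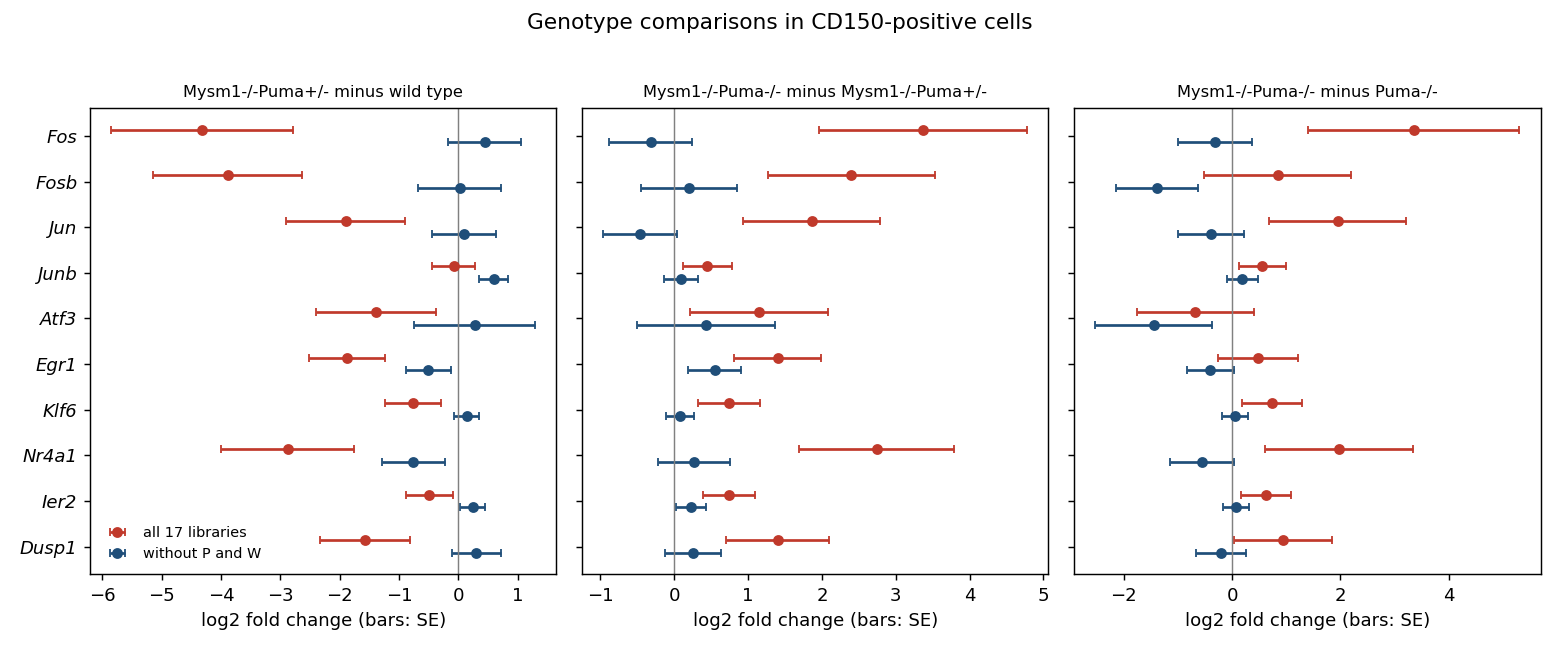
Log2 fold change with its standard error for the 10 genes in 3 genotype comparisons of CD150-positive cells, with all 17 libraries (red) and without P and W (blue). For Fos the red points lie at -4.32, 3.37 and 3.35 and the blue points at 0.44, -0.32 and -0.32.

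In the CD150-negative cells, where no library carried a P or W title, the groups overlapped for most members. Fos was at 2.87, 0.417 and 2.15 CPM in the wild-type libraries D2, D3 and D4 and at 2.71 to 3.99 CPM in Mysm1-/-Puma+/-. Jun was at 42.8, 7.91 and 21.2 CPM in D2, D3 and D4, and at 43.9, 50.2 and 16.1 CPM in the Mysm1-/-Puma-/- libraries B1, B3 and B5, so that each group held both low and high values. Over the 5 genotype comparisons 0 of 10 members passed edgeR's test in each, none had an unadjusted p under 0.05, and DESeq2 and limma voom also called 0. The background of called genes was 0.869% for Mysm1 loss, 1.24% for Puma loss without Mysm1, 2.31% for double loss, 1.35% for Mysm1 loss on Puma-null and 0% for Puma loss alone. The members' median log2 fold changes lay between 0.09 and 0.35. For Mysm1 loss the fold was 1.00 ± 0.57 for Fos, 0.54 ± 0.51 for Jun and -1.76 ± 1.08 for Atf3, with adjusted p from 0.640 to 0.817. Precision was best for Ier2 and Junb, with standard errors of 0.18 and 0.21, and their folds for Mysm1 loss were 0.12 and 0.31. The difference between the fractions in the response to Mysm1 loss called 0 of 10 members and 0.00916% of all genes. An unadjusted p under 0.05 was found for 3 members and 3.67% of all genes, and without P and W for 0 members and 4.70% of all genes.

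Egr1 was the only member called by edgeR between the CD150-positive and CD150-negative fractions as fitted without a block on all libraries. In Mysm1-/-Puma-/- cells it rose by 2.15 ± 0.62 on the log2 scale in the CD150-positive fraction (edgeR adjusted p = 0.0206, 7 against 3 libraries), where 12.3% of all genes were called and 5.16% were higher. Without the P libraries the rise was 1.31 ± 0.40 (adjusted p = 0.0309), from 3.48, 2.76 and 2.70 CPM in the CD150-negative B1, B3 and B5 to 5.98 to 8.86 CPM in the 4 CD150-positive B libraries, with no overlap and 10.4% of all genes called. With all libraries counted, the call was lost without any 1 of the CD150-negative B1, B3 or B5, at an adjusted p of 0.0703, 0.0721 and 0.0600. With the title id as a block across fractions both Egr1 calls were lost, at 1.21 (adjusted p = 0.0769) in Mysm1-/-Puma-/- and 0.92 (0.644) in wild type. In wild-type cells Egr1 rose by 2.34 ± 0.66 (adjusted p = 0.0264), with 7.15% of all genes called and 3.09% higher, but without W1 the fold was 0.97 and the adjusted p 0.354. The call was also lost without the CD150-negative D2 (0.145) or D3 (0.112), and without P and W 0 of 10 members passed, where 7.38% of all genes did. The D libraries, at 8.88, 4.27 and 8.12 CPM, overlapped the CD150-negative wild-type libraries at 2.26, 3.26 and 5.33 CPM. In Mysm1-/-Puma+/- cells Egr1 had a fold of 0.17 ± 0.62 and 0 of 10 members passed, with 0 unadjusted p under 0.05 and 5.90% of all genes called, or 6.65% without P and W. The Puma-/- libraries held 9.57 and 10.3 CPM of Egr1 in the CD150-positive and 2.57 to 4.53 CPM in the CD150-negative fraction, a pair of groups for which no test was fitted.

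Fos, Fosb and Jun did not pass edgeR's test between the fractions in any genotype as fitted without a block on all libraries. Fos in wild type had a log2 fold change of 4.99 ± 1.61 with an adjusted p of 0.0579, and of 0.19 ± 0.64 without W1 and P. It passed with DESeq2 (adjusted p = 0.00333) and with edgeR without D1 (0.0370), D2 (0.0268) or D3-4 (0.0486), all fits that include W1. DESeq2 also called Fosb in wild type (0.0223) and Fos in Mysm1-/-Puma-/- (0.0321), and edgeR with the title id as a block called Fosb in Mysm1-/-Puma+/- at -2.05 (0.00563). Fosb had folds of -0.47, -1.07 and -1.12 in wild type, Mysm1-/-Puma+/- and Mysm1-/-Puma-/- without P and W, each with a standard error of 0.61 to 0.67 and an adjusted p of 0.315 or more. Over the members the median log2 fold change between fractions in wild type fell from 2.25 with W1 to 0.10 without P and W, and in Mysm1-/-Puma-/- from 1.31 to -0.00.

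Of the other early response genes, listed apart from the 10 members, a few passed the test for Mysm1 loss. Ier5, a relative of Ier2 that is induced by growth signals and by stress, rose with Mysm1 loss in both fractions, by 1.46 ± 0.16 on the log2 scale in CD150-negative cells (edgeR adjusted p = 6.7e-05) and by 1.14 ± 0.20 in CD150-positive cells (0.00455). It stood at 20.9 to 25.4 CPM in the CD150-negative wild-type libraries and at 50.8 to 72.7 CPM in Mysm1-/-Puma+/-. In the CD150-positive fraction it was at 16.8 to 25.3 CPM in D and 33.4 CPM in W1, and at 47.1 to 56.8 CPM in Mysm1-/-Puma+/-, so that the groups did not overlap with W1 counted. Sesn2, a p53-induced stress protein that restrains growth signalling, rose by 2.24 ± 0.29 (adjusted p = 0.000360) and 1.83 ± 0.30 (0.00284) in the same comparisons. Its P libraries, at a mean of 13.8 CPM, all lay within the B range of 10.4 to 21.6 CPM. Plk2, a p53-linked kinase, rose with Mysm1 loss in CD150-negative cells by 2.09 ± 0.38 (0.00830), and Dusp6, a phosphatase that inactivates ERK, by 0.87 ± 0.18 (0.0221).

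By list, Mysm1 loss in CD150-negative cells raised 2 of 45 tested other immediate and delayed early genes, lowered 0, and raised 2 of 4 p53-linked early genes, with list medians of 0.03 and 1.42 beside -0.05 for all genes. Of all genes 0.869% were called in this comparison. In CD150-positive cells Mysm1 loss raised 1 of 46 and 1 of 4, with 0.454% of all genes called. Without P and W it raised 2 of 46 and 1 of 4, with 0.350% called. None of the 20 upstream regulators, among them Srf, Creb1 and the MAP kinases, passed for Mysm1 loss in either fraction, with an unadjusted p under 0.05 for 2 and 4 of them. The 12 heat shock genes, chaperones that respond to protein damage, also had 0 calls for Mysm1 loss, with 4 and 1 unadjusted p under 0.05. Of all genes 9.54% and 8.71% had an unadjusted p under 0.05 in these 2 comparisons. At the shares called over all genes, lists of 20 and 12 genes would hold few or no calls. In P against B, 1 of 46 other early genes rose (Ppp1r15a), and 0 of 12 heat shock genes and 0 of 20 upstream regulators passed, with medians of 0.34 and 0.05 and 0 unadjusted p under 0.05 in each. Over all genes 0.129% were called and 12.0% had an unadjusted p under 0.05. With Puma loss in Mysm1-null CD150-negative cells, 2 of 12 heat shock genes fell, Hspd1 by 0.76 and Hspe1 by 0.77 on the log2 scale (adjusted p = 0.0392 and 0.0471), and so did 1 of 20 upstream regulators, the kinase gene Rps6ka3, by 0.69. In this comparison 1.24% of all genes were called, 7 of the 12 heat shock genes and 3607 of all 21168 genes had an unadjusted p under 0.05, and the count of 263 called genes was 1 without A2, 2 with only the groups compared and 0 with the title number as a block.

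Between the fractions, Gadd45g, a stress sensor that binds cell cycle kinases, rose in CD150-positive cells of all 3 genotypes tested, by 2.46 ± 0.50 in wild type, 2.49 ± 0.49 in Mysm1-/-Puma+/- and 3.58 ± 0.50 in Mysm1-/-Puma-/- (edgeR adjusted p of 0.00142, 0.00115 and 7.1e-06). Without P and W the rises were 2.55, 2.50 and 3.74. Its level was 0.719 to 0.957 CPM in CD150-negative and 2.59 to 9.04 CPM in CD150-positive wild-type libraries, and W1, at 3.33 CPM, was within the range of D. Elk3, a ternary complex partner of serum response factor, fell in CD150-positive cells by 0.83, 0.58 and 0.63 on the log2 scale in the same genotypes (adjusted p of 3.6e-05, 0.00325 and 0.000146). Of the 46 other early genes 3 rose and 3 fell in wild type, 1 rose and 3 fell in Mysm1-/-Puma+/-, and 3 rose and 3 fell in Mysm1-/-Puma-/-, beside 7.15%, 5.90% and 12.3% of all genes called in either direction. Without P and W these counts were 2 and 6, 3 and 2, and 3 and 4.

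**Figure D4:**
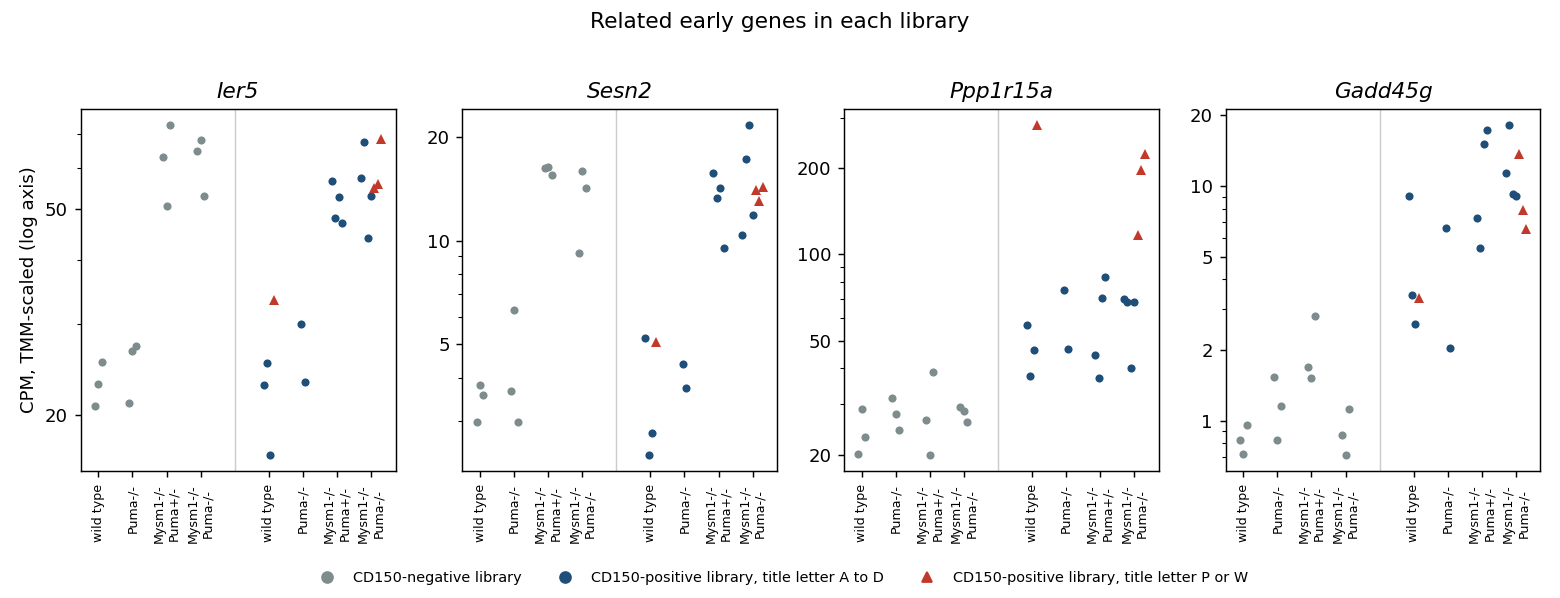
TMM-scaled CPM on a log axis of 4 related genes, 1 point per library, with P and W libraries as red triangles. Ier5 and Sesn2 divide by Mysm1 genotype in both fractions, Ppp1r15a is high in the P and W libraries (117 to 282 CPM), and Gadd45g is higher in most CD150-positive libraries, although C2-5 (2.03 CPM) and D3-4 (2.59 CPM) lie below the CD150-negative A3 (2.79 CPM).

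Among the genes that varied most like the 10 members in the 25 libraries other than P and W were Ssfa2, Rarg, Runx2 and Prdm2. Likeness was Pearson's r between a gene and the mean of the members, both centred within group, over 25 libraries and 10724 genes, which share library depth and preparation. It was 0.81 for Ssfa2, 0.76 for Rarg, 0.72 for Runx2 and 0.70 for Prdm2, beside a median of 0.05 over all genes ranked. None of these 4 genes passed in P against B, where Ssfa2 had a log2 fold change of 0.03 ± 0.16 (edgeR adjusted p = 0.947) and Prdm2 of 0.43 ± 0.14 (0.263). Ssfa2 was at 44.7, 51.0 and 52.5 CPM in P1, P2 and P3 and at 43.7 to 51.6 CPM in B. Prdm2 did not overlap, at 109 to 124 CPM in P and 81.4 to 94.9 CPM in B, and at 117 CPM in W1 and 80.8 to 94.1 CPM in D.

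On NCBIM37, the assembly also known as mm9, Jun lies at chr4:94715725-94718913 on the minus strand and overlaps the transcript BC042782 on the opposite strand. Fos lies at chr12:86814840-86818223, Fosb at chr7:19888070-19895394 and Nr4a1 at chr15:101097277-101105223, and these 3 overlap no other annotated gene. Egr1 overlaps Gm17507 on the opposite strand. The strand setting of the counting is not given in the sources used here, so reads from these overlapping pairs could not be told apart.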

How the data were processed

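RNA was sequenced in paired-end 50 base reads from rRNA-depleted, stranded, low-input libraries, per the labels' protocols. The authors deposited 1 file of raw counts per gene for each library, and the submitters' processing notes name FastQC, Trimmomatic 0.33, TopHat2 2.0.9, Bowtie 1.0.0, featureCounts, edgeR and R 3.4.2 with the build mm9. A deposited CPM matrix was not used. Groups were taken from the titles.

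Counts were tested with edgeR 4.0.16 in R 4.3.3 (filterByExpr, TMM, quasi-likelihood fit, Benjamini-Hochberg over all genes tested), fitted on all libraries of a fraction, or on all 29 for comparisons between fractions. P against B was fitted on all CD150-positive libraries with each title letter (A, B, C, D, P and W) as a separate group. The standard error was derived from the fold change and the F statistic (its size over the root of F), and 95% intervals as a normal approximation. Over 15 comparisons, alternatives were RLE scaling, DESeq2 1.42.0, limma voom 3.58.1 with sample quality weights, no filter, only the groups compared, each library left out, the P and W libraries left out or given a term, and a replicate block. The scripts were tested on simulated counts. Replicates were checked for duplicates, and the closest pair still differed by more than sampling noise (chi-square over degrees of freedom 20.75).

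The members and the other gene lists were chosen with earlier results of these data known, which included the high Fos of the P and W libraries. The rule for naming genes covered all 10 members; of each other list at most 4 called genes with the smallest p could be named per comparison, and the 5 genes most like the members, of which 1 is not reported here. Genes called in P against B that belong to no list were named after their values were seen.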

Additional observations from a re-analysis of the deposited data

Results flagged for a closer look

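In 30 sets of 1 gene in 1 CD150-positive group of 4 or 7 libraries, the highest or lowest library was tested with Dixon's ratio. The bar was its 95% critical value, which chance passes in about 1 in 20 independent sets. The ratio passed in 15 sets, 10 of them through the single library W1. Sets that share libraries are not independent, so the count cannot be set against that rate. The high Fos of the P and W libraries was also known before the members were chosen. In wild type W1 was the outlying library for all 10 members, at 218 CPM for Fos, 61.6 for Fosb, 493 for Jun, 38.1 for Junb, 51.7 for Egr1, 64.6 for Ier2, 79.0 for Dusp1, 5.40 for Atf3, 55.6 for Nr4a1 and 131 for Klf6. In Mysm1-/-Puma-/- P3 was outlying for Fosb at 22.1 CPM and Atf3 at 4.47 CPM. In Mysm1-/-Puma+/- A4 was outlying for Fosb at 2.67 CPM and Dusp1 at 16.2 CPM, and A3 had 0 CPM of Atf3. Groups of 2 and 3 libraries were not tested.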

How the results depend on the processing

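Of the 100 tests of a member in the 10 genotype comparisons, 98 were not called in the fit as reported nor in any alternative run. The other 2 were Jun with the title number as a replicate block, at -1.47 for Mysm1 loss (edgeR adjusted p = 0.00256) and -1.60 for double loss (0.00133) in CD150-positive cells, so that the block gave 1 called member in each. Correlations of deviations from group means ran from -0.476 to 0.46 between same-numbered libraries of other genotypes. Between the fractions of the same title id they ran from -0.188 to 0.645 over 7 pairs, 4 of them over 0.1 (A2, A3, B3 and B1). Not every pair passed that bar, and the numbers were not taken as pairing. Yet of the 7 ids found in both fractions, A2 and B5 had the lowest Jun in each, at 7.12 and 16.3 CPM in CD150-positive and 15.4 and 16.1 CPM in CD150-negative cells. Egr1 in A3 was lowest of the 7 ids in CD150-positive cells (1.93 CPM) and highest in CD150-negative cells (5.58 CPM). Libraries of 1 id may thus not be independent, which fits between fractions without a block do not allow for. The Puma-/- CD150-positive libraries could not enter the block. Between fractions in wild type, 1 member was called as reported, 4 with DESeq2, and 0 each with voom, with only the groups compared, without P and W and with the block, and 0 to 3 when each library was left out. In Mysm1-/-Puma-/- the count was 1 as reported, 2 with DESeq2, 0 with the block and 0 to 1 with each library left out; in Mysm1-/-Puma+/- the block called 1 (Fosb, -2.05). For P against B the count was 5 as reported, 8 with DESeq2, 1 with only the groups compared, 9 with P and W as one term and 1 to 8 with each library left out. The folds of the 9 members called in at least 1 of these fits kept their sign, and Fos ran from 4.02 to 5.48. The cause of these changes was not tested.

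Counts over all genes moved more, over the alternatives run: from 184 to between 54 and 858 for Mysm1 loss, from 263 to between 0 and 1724 for Puma loss without Mysm1, from 490 to between 93 and 1105 for double loss and from 285 to between 81 and 640 for Mysm1 loss on Puma-null in CD150-negative cells. In CD150-positive cells they moved from 95 to between 52 and 490, from 0 to between 0 and 9, from 61 to between 38 and 211 and from 24 to between 5 and 107 in the same order. Between fractions they moved from 1560 to between 373 and 2503 in wild type and from 2685 to between 1377 and 4795 in Mysm1-/-Puma-/-, and for P against B from 28 to between 1 and 398. With RLE scaling the split of higher and lower calls went from 52 and 9 to 60 and 21 for double loss, and from 19 and 5 to 13 and 7 for Mysm1 loss on Puma-null, in CD150-positive cells. Low counts limit Atf3 most, with standard errors near 1 on the log2 scale.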
